A study of Mus musculus with 6 samples.

Results

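Glycan-extending glycosyltransferases are the Golgi enzymes that build and cap the sugar chains of glycoproteins and glycolipids. They were chosen by gene symbol: the Galnt, C1galt1, Gcnt, Mgat, B3galt, B4galt, B3gnt, Fut, B4galnt, St3gal, St6gal, St6galnac and St8sia families. By this rule 87 of the 20263 genes measured were members, among them the chaperone gene C1galt1c1 and the pseudogene Fut4-ps1. The samples were 3 Gli1-/- prostates, which the labels call loss-of-function mutants, and 3 wild-type prostates, each the ventral and dorsolateral lobes of 1 mouse aged 10 weeks. All 6 mice had been castrated at 8 weeks and given a testosterone pellet 2 weeks later, and the lobes were taken after 3 days of testosterone, while the gland was regrowing. Gli1 is a transcription factor that responds to Hedgehog ligands, and the comparison addresses what its loss does to transcripts of the regrowing gland. The labels do not say which part of Gli1 the allele removes, nor the strain.

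Expression was read on a 1-colour Affymetrix array, 1 array per mouse, and every value below is a log2 intensity or a difference of log2 intensities (Gli1-/- minus wild-type). The number of arrays limits the precision, and the median standard error of a difference was 0.13 among the members and 0.12 among all genes. Gli1 itself read 6.34, 6.27 and 6.29 in Gli1-/- mice 1 to 3, against 6.28, 6.48 and 6.51 in wild-type mice 1 to 3. The groups overlapped, so this transcript does not check the genotype labels. As a gauge of signal without expression, 1012 olfactory receptor genes were used, and the 95th percentile of their mean levels was 6.13. Of the 87 members, 62 lay above that level and 25 at or below it.

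The proteins of a secretory gland carry O-glycans, begun by a polypeptide GalNAc-transferase on serine or threonine, and N-glycans, which arrive in the Golgi preassembled and are then trimmed and branched. Both are lengthened with galactose and N-acetylglucosamine and are ended by fucose, N-acetylgalactosamine or sialic acid. The enzyme families divide this work, and closely related members often differ in the sugar chain that they accept. The prostate epithelium secretes large amounts of such glycoproteins under androgen control.

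No member changed by the study-wide test. Limma with Benjamini-Hochberg adjustment over all 20263 genes called 0 of 87 members at an adjusted p under 0.05, against a background of 0.0197% (4 genes, 0.00987% higher and 0.00987% lower). The smallest p belonged to Fut9, which was lower in all 3 Gli1-/- mice (limma adjusted p = 0.0882). It was the 1 member at an adjusted p under 0.10, where the background was 0.148% (0.0888% higher and 0.0592% lower). At an unadjusted p under 0.05 stood 17 members (19.5%, against a background of 10.5%), 14 higher and 3 lower in Gli1-/-. The 14 are 16.1% of the members, against a background of 5.93% of all genes on the higher side. The 3 are 3.45%, against a background of 4.58% on the lower side. In 14 members every Gli1-/- mouse was above every wild-type mouse (background 8.34%), and in 3 every one was below (background 6.01%). A difference above 0.5 was measured for 12 members (background 2.78%) and one below -0.5 for 3 (background 2.34%).

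**Figure D1:**
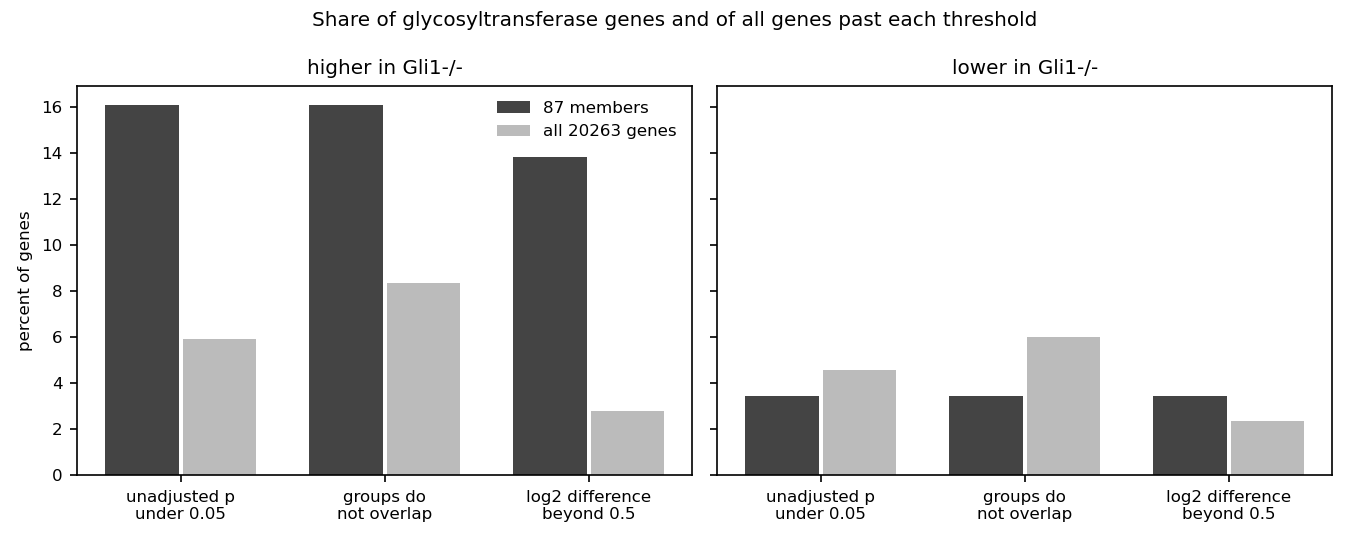
Percent of the 87 glycosyltransferase genes (dark bars) and of all 20263 genes (light bars) past each of 3 thresholds, with genes higher in Gli1-/- on the left and genes lower in Gli1-/- on the right. At an unadjusted p under 0.05, 16.1% of the members and 5.93% of all genes were higher, and 3.45% and 4.58% were lower.

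The median difference of the 87 members was 0.06, against -0.005 for all genes. Of the members, 54 were positive and 33 negative (62.1% positive, against a background of 48.5%). That background also serves for the counts of positive genes given below. The differences ranged from -1.48 for St6galnac1 to 1.24 for St6galnac6, which belong to the same family. Beyond 1 lay 2 members on the higher side (background 0.494%) and 3 on the lower side (background 0.232%). These counts describe the members and their background, and no test was made on the list.

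**Figure D2:**
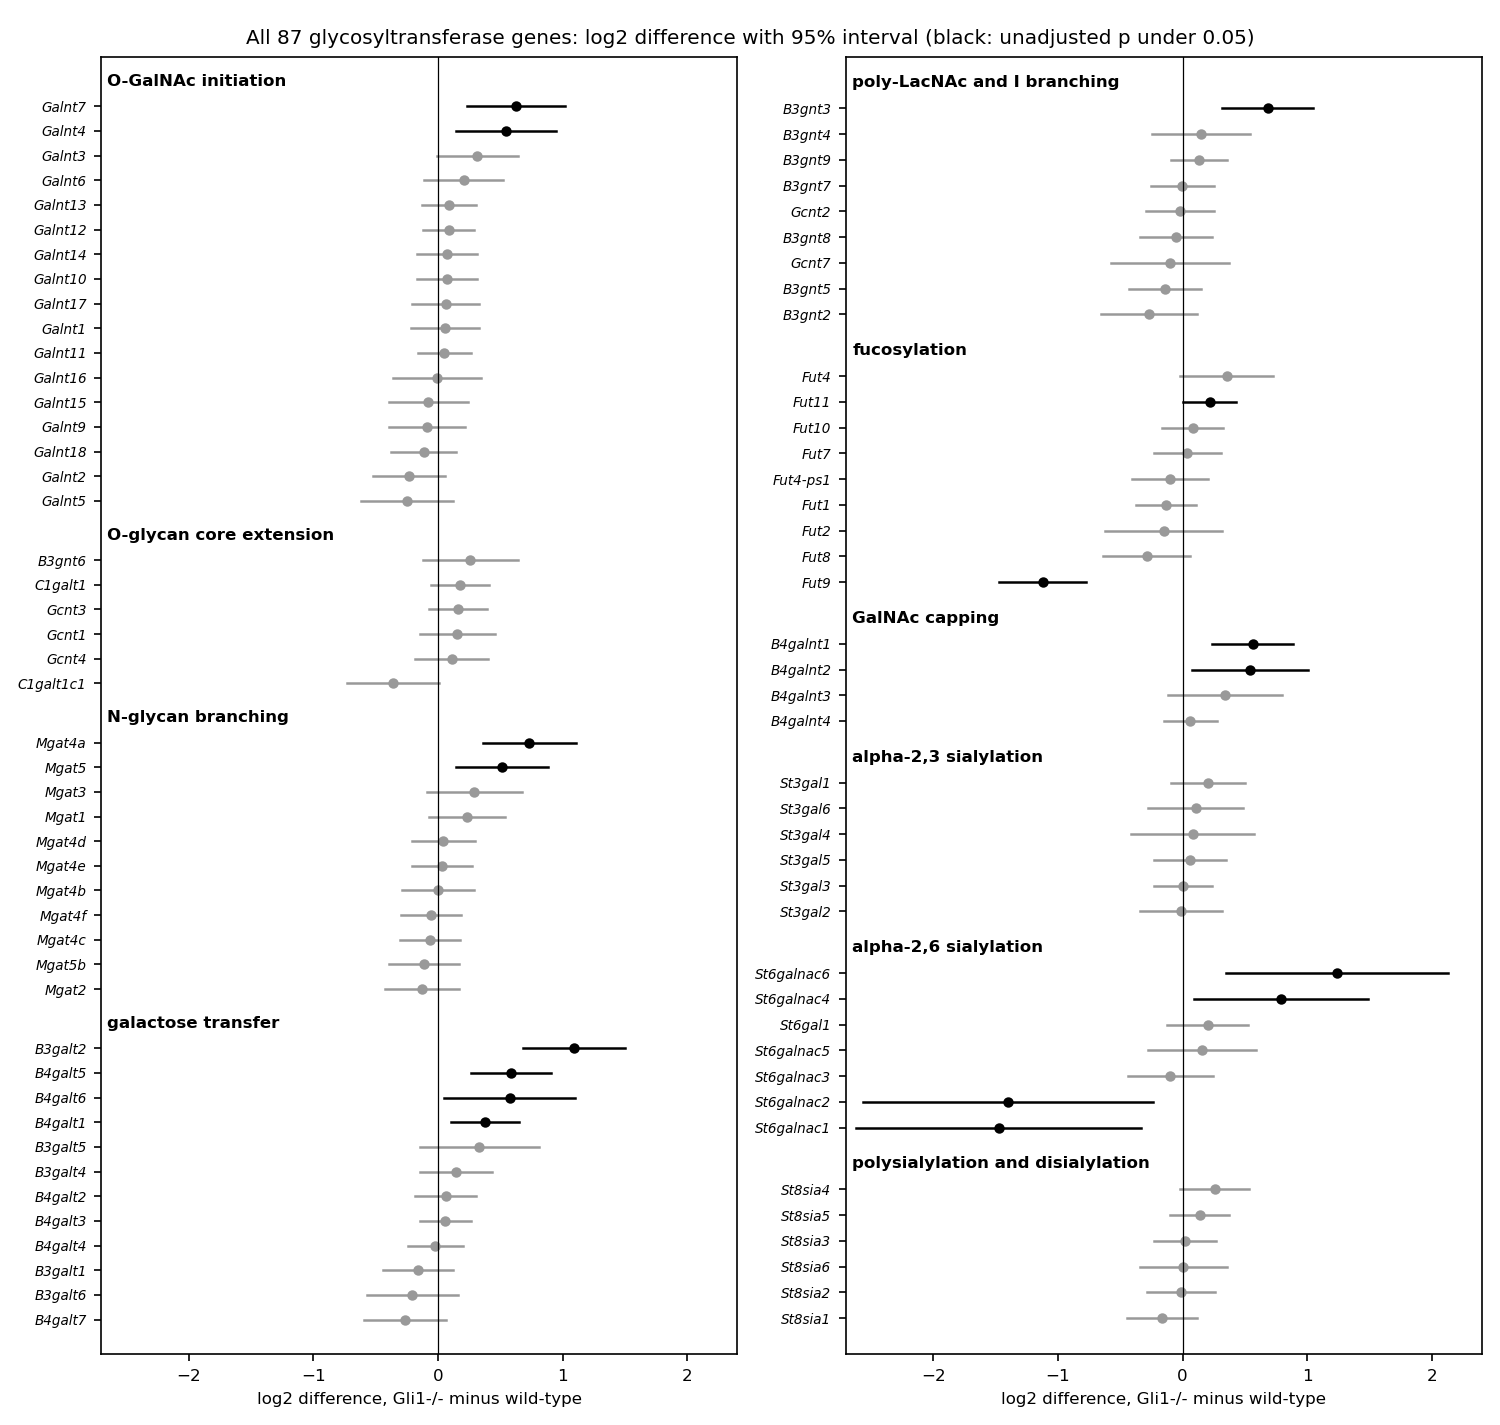
Log2 difference (Gli1-/- minus wild-type) of each of the 87 members, ordered by the step of glycan synthesis, with the 95% interval of the limma fit as a line; black marks an unadjusted p under 0.05. The differences run from -1.48 (St6galnac1) to 1.24 (St6galnac6), and most intervals hold 0.

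One wild-type mouse bears on many of these values. Wild-type mouse 3 was the lowest of the 3 wild-type mice in 13 of the 14 members that were higher in Gli1-/- at an unadjusted p under 0.05, the exception being B3gnt3. Over all 87 members it was the lowest in 31 (35.6%). Among the 1201 genes of the array that were higher by the same threshold, wild-type mouse 3 was the lowest in 51.1%. It lay more than 0.5 away from both other wild-type mice in 7 members (8.05%; all genes 3.27%), against 3 (3.45%; all genes 4.72%) for wild-type mouse 1 and 0 (all genes 1.18%) for wild-type mouse 2. Over all genes, wild-type mouse 1 thus stood apart more often than wild-type mouse 3. Without wild-type mouse 3, 13 members were higher and 3 lower at an unadjusted p under 0.05 (background 5.91% and 3.00%), and 12 of these 16 were among the original 17. The median member difference was then 0.09.

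Initiation of O-glycans was represented by 17 Galnt genes, of which 0 were called, 11 were positive and 6 negative. The pair with an unadjusted p under 0.05 was Galnt7 and Galnt4, which encode enzymes that prefer peptides already carrying GalNAc. Galnt7 read 7.19, 7.36 and 7.42 in Gli1-/- mice 1 to 3, against 7.04, 6.68 and 6.38 in wild-type mice 1 to 3. All 3 mutants were above all wild-type mice, by a mean of 0.63 (SE 0.17; limma adjusted p = 0.268). Galnt4 read 9.09, 9.45 and 9.18 in Gli1-/- mice, against 9.02, 8.68 and 8.39 in wild-type mice. Its groups did not overlap either, but Gli1-/- mouse 1 and wild-type mouse 1 lay close together, and the difference of 0.55 (SE 0.17) had a limma adjusted p of 0.336. Galnt3, whose product protects the hormone Fgf23 from cleavage, differed by 0.32 with a 95% interval from -0.01 to 0.64. The broadly acting initiators Galnt1 and Galnt2 differed by 0.05 (95% interval -0.22 to 0.33) and -0.23 (-0.52 to 0.05), and Galnt2 was below wild type in all 3 mutants. The remaining 12 genes lay between -0.25 (Galnt5) and 0.21 (Galnt6).

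None of the 6 core O-glycan genes had an unadjusted p under 0.05. C1galt1, the synthase of the core 1 disaccharide, differed by 0.18 (SE 0.10), and its chaperone gene C1galt1c1 by -0.36 (SE 0.16). C1galt1c1 read 7.41, 7.80 and 7.42 in Gli1-/- mice, against 7.66, 7.91 and 8.14 in wild-type mice, so the groups overlapped through Gli1-/- mouse 2. The core 2 branching genes Gcnt1, Gcnt3 and Gcnt4 differed by 0.16, 0.16 and 0.11, and the core 3 synthase gene B3gnt6 by 0.26, with an interval from -0.12 to 0.64. Gcnt3 and B3gnt6 were among the dim members.

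Among the 11 N-glycan branching genes, Mgat4a and Mgat5 had an unadjusted p under 0.05. Mgat4a, whose product adds the beta-1,4 branch, read 9.31, 9.22 and 9.05 in Gli1-/- mice, against 8.74, 8.49 and 8.15 in wild-type mice. Mgat5, whose product adds the beta-1,6 branch that is favoured for extension, read 8.92, 8.81 and 8.73, against 8.61, 8.31 and 7.99. In both genes all 3 mutants were above all wild-type mice. The differences were 0.73 (SE 0.16; limma adjusted p = 0.212), or 1.66-fold, for Mgat4a and 0.51 (SE 0.16; limma adjusted p = 0.322) for Mgat5. Mgat1 and Mgat2, which start the complex branches, differed by 0.23 (95% interval -0.07 to 0.54) and -0.13 (-0.43 to 0.17). Mgat3, which adds the bisecting sugar, differed by 0.29 (-0.09 to 0.67), and Mgat4b, the paralog of Mgat4a, by -0.002 (-0.29 to 0.29). Of the remaining 5, Mgat4c, Mgat4d, Mgat4e and Mgat4f were dim, and none of the 5 differed by more than 0.11 in either direction.

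Among the galactosyltransferase genes, B3galt2 stood furthest from wild type. B3galt2 encodes a beta-1,3-galactosyltransferase that makes type 1 chains, and its probe set read 7.08, 7.32 and 6.64 in Gli1-/- mice, against 5.97, 6.02 and 5.77 in wild-type mice. All 3 mutants were above all wild-type mice. The difference of 1.09 (SE 0.18), or 2.13-fold, had a limma adjusted p of 0.105. The wild-type values were below the olfactory level of 6.13. Its relatives B3galt1, B3galt4 and B3galt5 differed by -0.16, 0.14 and 0.33, the last with a 95% interval from -0.15 to 0.81. B3galt1 and B3galt5 were dim.

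Of the 7 B4galt genes, all but B4galt7 make N-acetyllactosamine units or lactosylceramide. B4galt1, the broadly expressed enzyme that lactating mammary gland uses for lactose, read 10.55, 10.76 and 10.45 in Gli1-/- mice, against 10.29, 10.26 and 10.07 in wild-type mice. B4galt5 read 8.47, 8.31 and 8.73, against 7.96, 8.05 and 7.76, and its relative B4galt6 read 9.68, 9.52 and 9.76, against 9.51, 9.18 and 8.55. In all 3 genes the groups did not overlap, although in B4galt6 Gli1-/- mouse 2 and wild-type mouse 1 read almost alike. The differences were 0.38 (SE 0.12), 0.59 (SE 0.14) and 0.57 (SE 0.23), with limma adjusted p of 0.328, 0.221 and 0.437. Without wild-type mouse 3 the difference of B4galt6 was 0.31. B4galt5 and B4galt6 encode the lactosylceramide synthases, the entry to most glycolipids. B4galt2, B4galt3 and B4galt4 differed by 0.06, 0.06 and -0.02. B4galt7 and B3galt6, which build the linker of proteoglycans and not the chains described here, differed by -0.26 (95% interval -0.59 to 0.07) and -0.21 (-0.57 to 0.16).

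Of the 9 genes for poly-N-acetyllactosamine and its I branches, B3gnt3 was the 1 with an unadjusted p under 0.05. Its product extends core 1 O-glycans, including those read by L-selectin. B3gnt3 read 8.39, 7.98 and 8.15 in Gli1-/- mice, against 7.66, 7.21 and 7.61 in wild-type mice, which put all mutants above all wild-type mice by a mean of 0.68 (SE 0.16; limma adjusted p = 0.221). B3gnt2, the main poly-N-acetyllactosamine synthase, differed by -0.27 (95% interval -0.66 to 0.11). Gcnt2, the I-branching gene, has 3 probe sets, which differed by -0.21, -0.20 and -0.02. The brightest, used here, gave the last value. The other 6 lay between -0.14 and 0.15.

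In the fucosyltransferase family, 1 gene stood apart. Fut9, which makes the Lewis x structure on N-acetyllactosamine, read 6.67, 7.17 and 6.82 in Gli1-/- mice, against 8.10, 7.84 and 8.08 in wild-type mice. All 3 mutants were below all wild-type mice. Fut9 averaged 6.88 ± 0.26 in Gli1-/- and 8.01 ± 0.14 in wild type (SD, n = 3 each), a 2.18-fold lower intensity, with a 95% interval of the log2 difference from -1.47 to -0.78. With each mouse left out in turn the difference lay between -1.27 and -1.01. The other alpha-1,3-fucosyltransferase genes showed no comparable fall. Fut4 read 7.15, 7.64 and 7.44 in Gli1-/- mice, against 7.29, 7.03 and 6.85 in wild-type mice. Fut4 thus differed by 0.35 (95% interval -0.02 to 0.73), with overlapping groups. Fut7, which makes selectin ligands in leukocytes, was dim and differed by 0.04. The 3 probe sets of Fut7 ran from -0.002 to 0.04. A test of the difference between Fut9 and Fut4 was not made. Fut11 was higher in all 3 mutants, at 9.49, 9.56 and 9.53 in Gli1-/- mice, against 9.30, 9.39 and 9.25 in wild-type mice. Its difference was small (0.22, SE 0.09; limma adjusted p = 0.463).

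The remaining fucosyltransferases did not separate the groups. Fut2, the secretor enzyme of glandular epithelium, read 11.21, 12.07 and 11.63 in Gli1-/- mice, against 11.89, 11.74 and 11.73 in wild-type mice, so the mutants spanned the wild-type range (difference -0.15, 95% interval -0.62 to 0.32). Fut8, which adds the core fucose of N-glycans, differed by -0.29 (95% interval -0.64 to 0.06). Fut1 was dim and differed by -0.13, Fut10 differed by 0.08, and the pseudogene Fut4-ps1 was dim and differed by -0.10.

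All 4 B4galnt genes were positive. B4galnt1, which makes the gangliosides GM2 and GD2, read 11.66, 11.48 and 11.76 in Gli1-/- mice, against 11.29, 11.08 and 10.84 in wild-type mice. B4galnt2, which makes the Sda antigen on sialylated chains, read 11.73, 11.81 and 11.53, against 11.58, 11.13 and 10.75. The groups were separate in B4galnt1 and overlapped in B4galnt2 through Gli1-/- mouse 3 and wild-type mouse 1. The differences were 0.56 (SE 0.14; limma adjusted p = 0.239) and 0.54 (SE 0.20; limma adjusted p = 0.417), and without wild-type mouse 3 that of B4galnt2 was 0.34. B4galnt3 and B4galnt4, which make the LacdiNAc unit, differed by 0.34 (95% interval -0.12 to 0.80) and 0.06, the second of them dim.

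**Figure D3:**
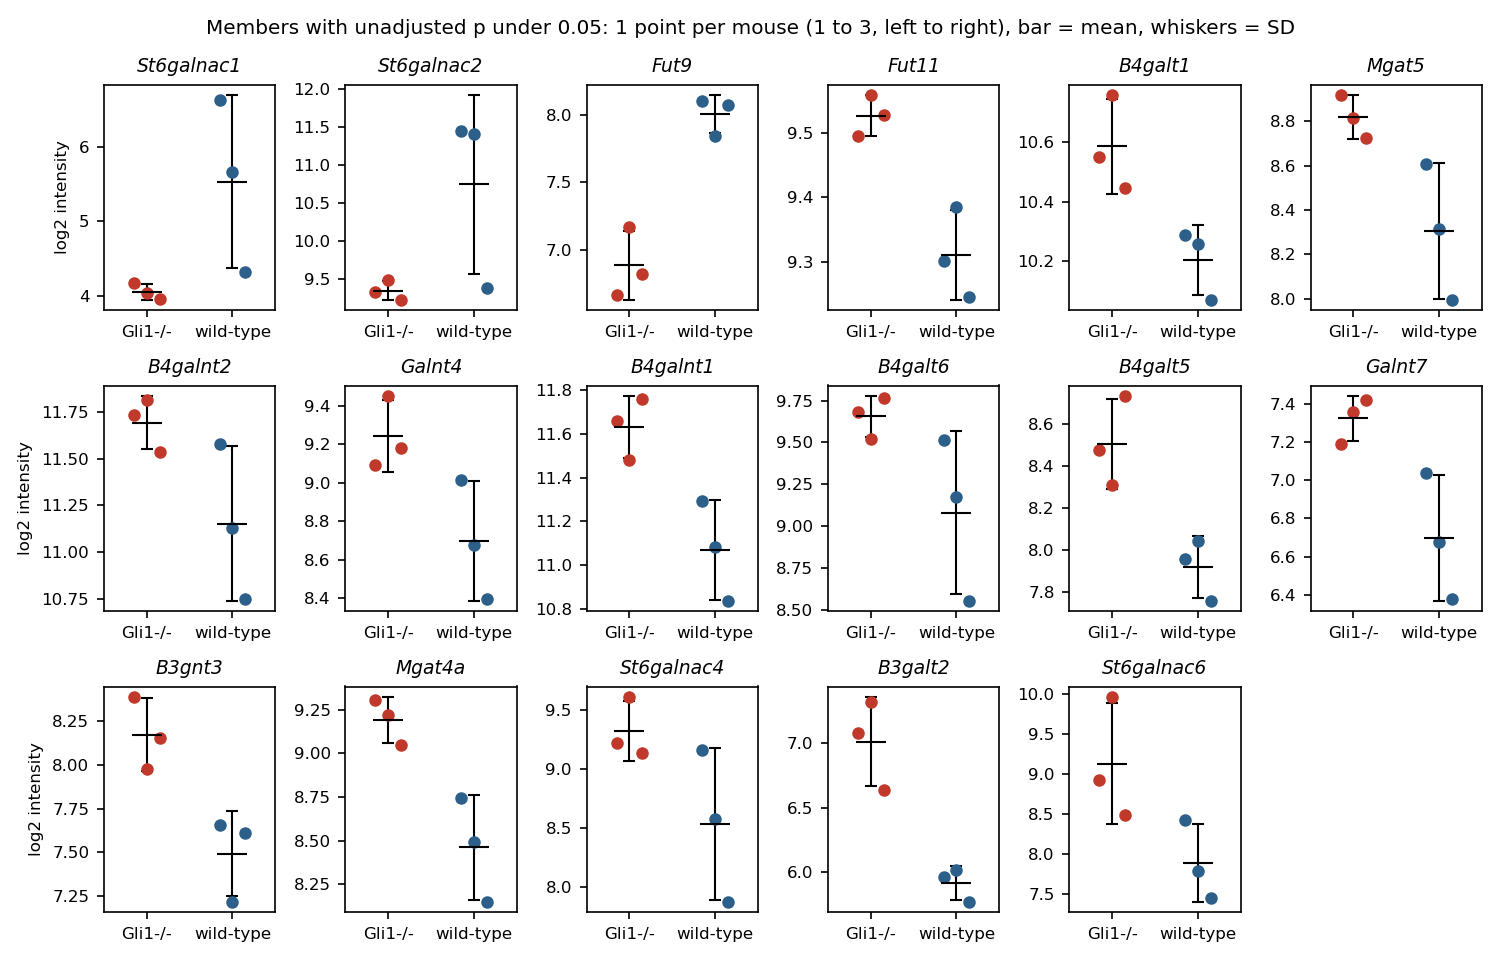
Log2 intensity of the 17 members with an unadjusted p under 0.05, in panels from the most negative to the most positive difference; Gli1-/- mice are red and wild-type mice blue, each point is 1 mouse, and bars with whiskers are the mean and SD of 3 mice. In 13 of the 14 panels that are higher in Gli1-/-, wild-type mouse 3 (right-hand blue point) is the lowest.

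The widest differences, in both directions, were in the St6galnac genes, which place sialic acid in alpha-2,6 linkage on GalNAc. St6galnac1, the sialyl-Tn synthase gene, read 4.18, 4.04 and 3.96 in Gli1-/- mice, against 6.63, 5.66 and 4.32 in wild-type mice. St6galnac2, which acts on core 1 O-glycans, read 9.33, 9.48 and 9.23, against 11.44, 11.41 and 9.38. Wild-type mice 1 and 2 read well above the mutants in both genes, while wild-type mouse 3 read close to the mutants. In St6galnac2 it lay 2.05 below the mean of wild-type mice 1 and 2 and 0.03 above the mean of the mutants. A gap of more than 1 below both other wild-type mice was found in 15 genes of the whole array (0.074%). The mean differences were -1.48 (SE 0.49; limma adjusted p = 0.362) and -1.40 (SE 0.50; limma adjusted p = 0.401). Without wild-type mouse 3 they were -2.09 and -2.08, with limma adjusted p of 0.242 and 0.0103. Without wild-type mouse 1 they were -0.93 and -1.05 (limma adjusted p = 0.260 and 0.361). Without wild-type mouse 2 they were -1.42 and -1.07 (limma adjusted p = 0.696 and 0.806). The wild-type SD was 1.16 and 1.18 in these genes, against a median of 0.16 over the members, and the mutant SD was 0.11 and 0.13. St6galnac1 lay below the olfactory level in every mutant and in wild-type mice 2 and 3.

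St6galnac4 and St6galnac6, which make disialylated O-glycans and alpha-series gangliosides, ran the other way. St6galnac6 read 8.93, 9.96 and 8.49 in Gli1-/- mice, against 8.42, 7.79 and 7.46 in wild-type mice. St6galnac4 read 9.22, 9.61 and 9.14, against 9.16, 8.57 and 7.87. Gli1-/- mouse 2 was the highest and wild-type mouse 3 the lowest in both, and the groups were separate in St6galnac6 and overlapped in St6galnac4. The differences were 1.24 (SE 0.38; limma adjusted p = 0.327), or 2.36-fold, and 0.79 (SE 0.30; limma adjusted p = 0.427). Without Gli1-/- mouse 2 that of St6galnac6 was 0.82, and without wild-type mouse 3 that of St6galnac4 was 0.46. The 3 probe sets of St6galnac6 gave 1.19, 1.33 and 1.24. St6galnac3 and St6galnac5 were dim and differed by -0.10 and 0.16, and St6gal1, which sialylates N-glycans, differed by 0.20 (95% interval -0.12 to 0.52).

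These 6 genes form 3 adjacent pairs in the mouse gene order: St6galnac1 with St6galnac2, St6galnac4 with St6galnac6, and St6galnac3 with St6galnac5, each with 0 protein-coding genes in between. Within each of the first 2 pairs, both genes leaned the same way and had the same lowest wild-type mouse. That was wild-type mouse 3 in both pairs, and sharing it is not particular to neighbours. It was also the lowest in 31 of all 87 members, and in 13 of the 14 that were higher at an unadjusted p under 0.05. No other members were adjacent. Fut1 and Fut2 were the next nearest, with 3 genes between them and differences of -0.13 and -0.15.

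**Figure D4:**
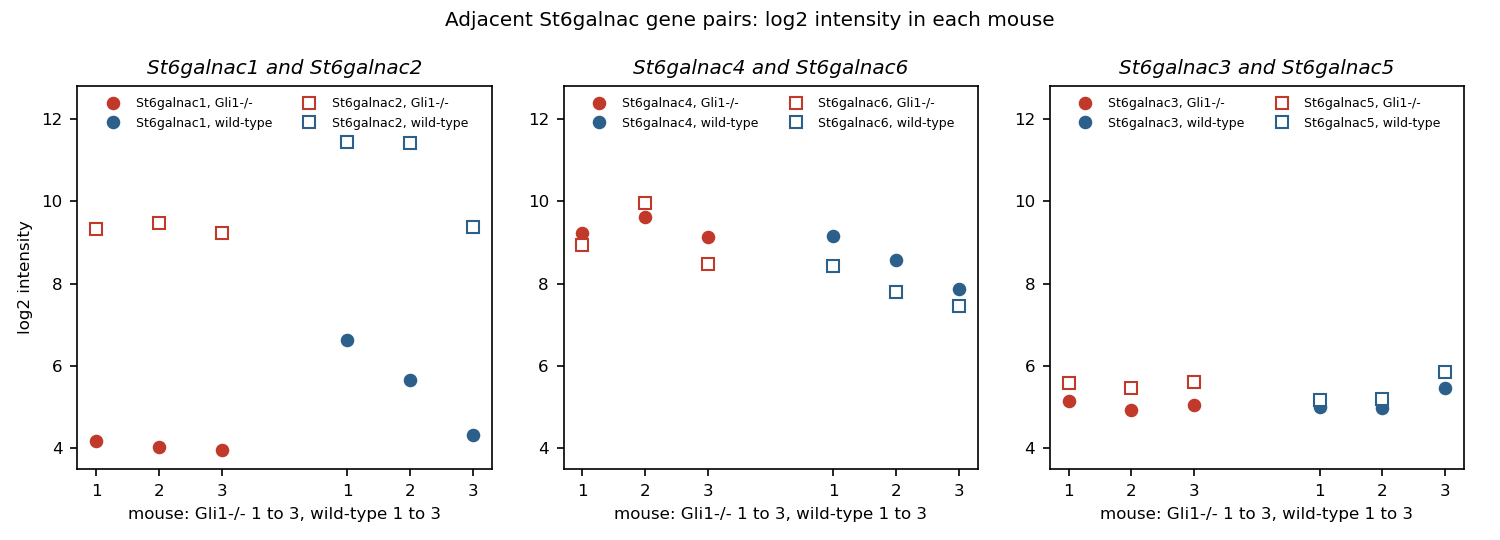
Log2 intensity of the 3 adjacent pairs of St6galnac genes in each mouse, with Gli1-/- mice 1 to 3 in red and wild-type mice 1 to 3 in blue; filled circles and open squares are the genes of a pair. St6galnac2 reads 9.23 to 9.48 in the mutants and 9.38 in wild-type mouse 3, against 11.41 and 11.44 in the other wild-type mice.

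The windows around the start sites of the higher pair and of B3galt2 are shown because these were the members with the largest positive differences and St6galnac4 and St6galnac6 are neighbours. They were chosen after the values were seen. Each runs from 250 bases before to 50 after the RefSeq start on GRCm38.p6, 5′ to 3′ on the plus strand, which is the strand of all 3 genes. Capitals mark GC boxes (GGGCGG or its complement CCGCCC).
St6galnac4, chr2:32586828-32587127: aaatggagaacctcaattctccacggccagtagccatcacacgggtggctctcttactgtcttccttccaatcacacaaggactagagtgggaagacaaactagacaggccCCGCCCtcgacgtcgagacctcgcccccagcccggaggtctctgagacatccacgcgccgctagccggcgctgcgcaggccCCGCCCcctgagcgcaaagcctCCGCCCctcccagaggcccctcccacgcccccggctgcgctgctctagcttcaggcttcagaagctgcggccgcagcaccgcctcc
St6galnac6, chr2:32599459-32599758: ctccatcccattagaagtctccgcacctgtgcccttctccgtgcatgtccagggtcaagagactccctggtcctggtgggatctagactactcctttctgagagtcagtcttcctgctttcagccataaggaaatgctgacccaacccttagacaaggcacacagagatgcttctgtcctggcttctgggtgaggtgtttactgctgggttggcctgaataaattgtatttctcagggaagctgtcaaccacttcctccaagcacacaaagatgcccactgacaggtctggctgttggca
B3galt2, chr1:143640447-143640746: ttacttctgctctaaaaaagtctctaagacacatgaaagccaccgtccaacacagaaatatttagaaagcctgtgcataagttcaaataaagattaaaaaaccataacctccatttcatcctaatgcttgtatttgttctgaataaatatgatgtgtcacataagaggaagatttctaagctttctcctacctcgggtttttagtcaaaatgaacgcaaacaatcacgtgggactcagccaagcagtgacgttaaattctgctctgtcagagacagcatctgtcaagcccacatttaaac

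The neighbours differ in composition. The St6galnac4 window is 65.7% G and C, with 23 CpG dinucleotides and 3 GC boxes, while the St6galnac6 window is 52.0% G and C with 2 CpG and 0 GC boxes, and that of B3galt2 is 37.7% with 5 and 0. Over all 32851 windows the median was 52.7% with 7 CpG, and 35.7% held a GC box. RefSeq windows were matched for 63 of the 87 members (89 windows), with a median of 60.3% and 18 CpG, and 53.9% held a GC box. The GLI consensus GACCACCCA, read on both strands, was in 0 of the 63 members and in 0.289% of the 27025 genes with a window. A canonical androgen response element, searched on both strands, was likewise in 0 of 63 and in 0.0481%. Of the 17 members with an unadjusted p under 0.05, 11 were among the 63; Fut9, St6galnac1 and St6galnac2, the 3 lower in Gli1-/-, were not searched. These counts say only that the letters are not in the windows searched. With shares this low over all genes, 0 of 63 was the likely count for either motif.

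None of the St3gal and St8sia genes had an unadjusted p under 0.05. The 6 St3gal genes, which end chains with alpha-2,3-linked sialic acid, lay between -0.01 (St3gal2) and 0.20 (St3gal1). St3gal1 read 8.89, 8.73 and 8.83 in Gli1-/- mice, against 8.38, 8.68 and 8.79 in wild-type mice, and the groups overlapped. Without wild-type mouse 1 its difference was 0.08. St3gal4 varied most among the mutants, at 7.22, 7.82 and 7.02, against 7.02, 7.36 and 7.43 in wild-type mice. Of the 6 St8sia genes, which add sialic acid to sialic acid, 5 were dim. St8sia4, a polysialic acid synthase gene, read 5.36, 5.69 and 5.36 in Gli1-/- mice, against 5.12, 5.28 and 5.25 in wild-type mice. It was higher in all 3 mutants by a mean of 0.26 (95% interval -0.02 to 0.54), or 0.15 without Gli1-/- mouse 2, and it lay below the olfactory level in all 6 mice.

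The rest of the glycan pathway was read through lists of related genes, and 0 of their genes passed over all genes. Of 26 sugar nucleotide genes, 8 were positive (median -0.03), and 3 were higher and 1 lower at an unadjusted p under 0.05. Over all genes these shares were 5.93% higher and 4.58% lower, which serve as background for the lists that follow as well. The 4 genes of this list that act on sialic acid did not all lie on 1 side. Gne, which starts sialic acid synthesis, read 12.42, 12.38 and 12.48 in Gli1-/- mice, against 12.28, 11.94 and 11.56 in wild-type mice, and Cmas, which activates sialic acid, differed by 0.39 (SE 0.14). In both, all mutants were above all wild-type mice (limma adjusted p = 0.388 and 0.416). Nans, which makes sialic acid phosphate, differed by -0.04 (SE 0.14), and Cmah, which hydroxylates activated sialic acid, by 0.18 (SE 0.17), both with overlapping groups. The esterase gene Siae, which removes acetyl groups from sialic acid, read 8.50, 8.59 and 8.49, against 8.34, 8.04 and 7.79, and was the 1 of 13 sulfation and acetylation genes with an unadjusted p under 0.05. In Gne and Siae wild-type mouse 3 was again the lowest. Gmppb, which makes the mannose donor, was below wild type in all 3 mutants (difference -0.47, SE 0.14).

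Transport, precursor assembly and trimming genes were also read. The 10 Golgi sugar transporters had a median of -0.02, with 0 past an unadjusted p under 0.05 and Slc35a2, the UDP-galactose carrier, at 0.31 (SE 0.17). The 26 precursor and oligosaccharyltransferase genes had a median of -0.07, with 1 higher and 2 lower at an unadjusted p under 0.05, among them Alg9 at 0.34 and Alg5 at -0.46. Among the 12 trimming genes (median 0.002), Man1a, a Golgi mannosidase, was below wild type in all 3 mutants (difference -0.47, SE 0.10; limma adjusted p = 0.195). Of 18 glycosidase genes (median 0.05), 11 were positive, and 3 were higher and 1 lower at an unadjusted p under 0.05. The cytosolic enzyme gene Engase read 8.68, 8.82 and 8.54, against 8.11, 8.02 and 8.20 (difference 0.57, SE 0.11; limma adjusted p = 0.152). The 31 other glycosyltransferase genes, outside the families above, had a median of 0.03 and 1 with an unadjusted p under 0.05, Ggta1 at 0.37 (SE 0.13). Muc1, a mucin that carries such O-glycans, read 7.18, 6.94 and 7.25 in Gli1-/- mice, against 6.30, 6.30 and 6.38 in wild-type mice (limma adjusted p = 0.0911). Of the 9 mucin-list genes measured, 4 were positive, with a median of -0.01, and only 3 lay above the olfactory level. At an unadjusted p under 0.05, 2 were higher and 0 lower, namely Muc1 and Muc4 (difference 0.30, SE 0.10).

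The lobes hold several cell types, and the mean levels of several marker lists differed between the groups. No marker gene was called at an adjusted p under 0.05, and no test was made on the lists. In bulk RNA fewer cells of a type and less RNA per cell cannot be told apart. Over all genes, 48.5% of differences were positive. Luminal epithelium markers were positive in 9 of 11 genes, at a mean level of 11.50 to 11.62 in Gli1-/- mice, against 11.32 to 11.47 in wild-type mice, with wild-type mouse 3 the lowest. Prostate secretory markers were positive in 1 of 10, at 12.09 to 12.28, against 12.37 to 12.75, with wild-type mouse 3 the highest. Smooth muscle markers were positive in 0 of 8, at 9.62 to 9.99, against 10.02 to 10.48, again with wild-type mouse 3 the highest. Macrophage markers were positive in 10 of 10, at 8.81 to 9.25, against 8.27 to 8.61. The part of these differences in the glycosyltransferase values was not tested.

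Lymphocyte and fibroblast marker levels also did not overlap between the groups, while the remaining lists did. The fibroblast levels barely separated, at 9.529 in Gli1-/- mouse 3 against 9.521 in wild-type mouse 3. Only 5 of the 11 lymphocyte genes lay above the olfactory level on average. Seminal vesicle markers, of which 6 of 8 were below the olfactory level on average, read 4.43, 6.09 and 4.50 in Gli1-/- mice, against 4.50, 4.87 and 6.54 in wild-type mice, so that Gli1-/- mouse 2 and wild-type mouse 3 stood above the rest. In St6galnac4 and St6galnac6 these same mice were the highest (Gli1-/- mouse 2) and the lowest (wild-type mouse 3) of the 6. Proliferation markers were positive in 0 of 10, at 7.79 to 8.63, against 8.34 to 8.84. Basal markers were positive in 6 of 7 (8.94 to 9.45, against 8.72 to 9.04), fibroblast markers in 7 of 8 (9.53 to 10.02, against 9.34 to 9.52) and endothelial markers in 8 of 8 (7.65 to 7.95, against 7.51 to 7.67). Lymphocyte markers were positive in 8 of 11 (5.96 to 6.16, against 5.76 to 5.86), skeletal muscle markers in 8 of 8 (7.08 to 8.36, against 6.61 to 7.46) and urothelial markers in 2 of 6 (7.94 to 8.22, against 8.05 to 8.19).

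**Figure D5:**
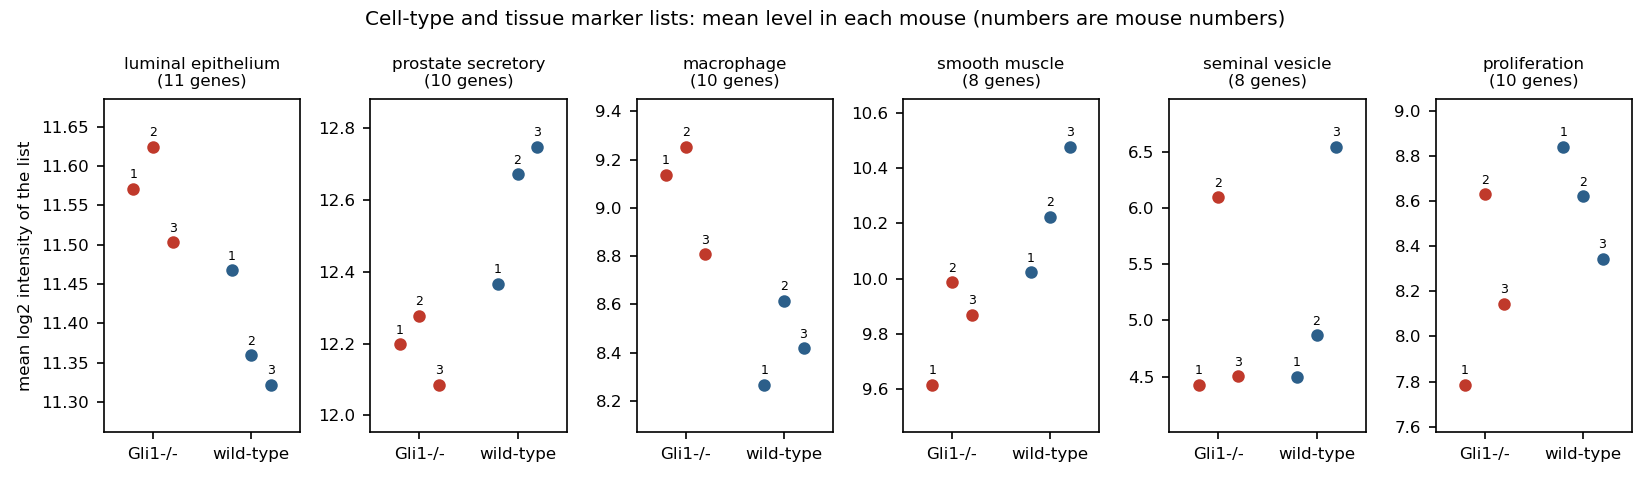
Mean log2 intensity of 6 marker lists in each mouse, with Gli1-/- mice in red and wild-type mice in blue; the small numbers are mouse numbers and each panel has its own scale. Luminal markers lie at 11.50 to 11.62 in Gli1-/- mice and 11.32 to 11.47 in wild-type mice, and seminal vesicle markers are highest in wild-type mouse 3 (6.54) and Gli1-/- mouse 2 (6.09).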

How the data were processed

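Biotin-labelled DNA targets from total RNA of 6 prostates were read on arrays, per the labels' protocols. The authors deposited log2 intensities for each mouse, taken here without further normalization. Per the submitters' processing notes, the tools were Partek and RMA, with no role or version stated. RMA shrinks fold changes near background. The labels name no array model, probe-set definition or build. Sample medians lay between 6.76 and 6.95.

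Of 32025 probe sets, 25343 matched 1 gene through RefSeq transcripts (table for GRCm38.p6, used for names and gene order). The brightest of a gene's probe sets over all 6 mice stood for it. The 87 members had 116 probe sets, and 3 symbols of the rule were not analysed here.

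Gli1-/- minus wild-type was tested in R 4.3.3 by lmFit and eBayes of limma 3.58.1 (two-sided, no covariate, no filter), with Benjamini-Hochberg adjustment over 20263 genes and a threshold of 0.05. Intervals are 95% and not adjusted. Each mouse is separate. The procedure was tested on simulated data.

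Members, lists and named-gene rule (unadjusted p under 0.05, or smallest p in a step; up to 3 genes per pathway list) were chosen with earlier results of these data known. Promoter windows were taken from RefSeq (GRCm38.p6). Alternatives were other variance models, normalizations, dim-gene filters, probe-set rules, a replicate block and mice left out.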

Additional observations from a re-analysis of the deposited data

How the results depend on the processing

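The call of 0 members held in 11 of the 15 alternatives. With array weights 28 members and 4680 genes were called; those weights ran from 0.353 for wild-type mouse 3 to 7.22 for wild-type mouse 2, and their estimation stopped before it converged. Fut9 passed without Gli1-/- mouse 2 (limma adjusted p = 0.0377; 0.202 without Gli1-/- mouse 1, 0.318 without wild-type mouse 3, and 0.00403 to 0.318 over all alternatives) and St6galnac2 without wild-type mouse 3. With wild-type mouse 1 and Gli1-/- mouse 2 both left out, 4 members (B3galt2, B4galnt1, Fut9 and St6galnac6) and 868 genes were called, and the median member difference was 0.017 against 0.061. With 1 mouse left out at a time, 0 to 1 members and 3 to 17 genes were called, and the median lay between 0.038 and 0.087. The replicate block called 25 genes and 0 members. Deviations of same-numbered mice correlated at 0.16, 0.25 and -0.15. Whether same-numbered mice share anything beyond the number was not tested. Median centring called 8 genes, the olfactory filter 8 and the filter at the median of all genes 2. Over 294 repeats for 20 members no direction turned. Of the repeats, 271 kept their side of the threshold and 23 newly passed it, 17 of them with array weights. These 20 had an unadjusted p under 0.05 in the main fit or the smallest p of their step. A turn of direction was therefore unlikely among them from the start. Directions of the other members, many of them near 0, were not followed gene by gene. Differences in dim members are compressed, and 3 mice per group limit what could be called.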
